A study of Gallus gallus with 24 samples.

Results

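Interferon response genes were followed in chicken PBMCs (peripheral blood mononuclear cells, the fraction of blood rich in lymphocytes and monocytes). The set is a list of 37 gene symbols, and its members are the genes of the count tables that carry one of these symbols. Of the 37 symbols, 33 were found, each for 1 of the 23910 genes, and all 33 were among the 20266 genes with enough reads to be tested. EPSTI1, PARP14, SAMD9L and UBA7 were not found by symbol and were not analysed here. The 33 genes comprise 4 receptor chains, 5 sensors and adaptors, 6 transcription factors, 12 effectors and 6 ubiquitin and ADP-ribose enzymes or their partners. The list was drawn up with results of these data already known.

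PBMCs of 6 Cobb500 broiler chickens of 4 to 6 weeks of age were cultured for 24 h. They received a living probiotic strain of Bacillus subtilis (BS, 3 bacteria per PBMC), one of Bacillus velezensis (BV, 3 bacteria per PBMC) or concanavalin A (conA, 10 µg/ml, a plant lectin that activates T cells, used as the positive control for proliferation), or medium alone (control). During these 24 h all groups shared a medium with chicken serum and no antibiotics, so that serum was also present in the control. Before that, the isolated cells were kept until the next day in medium with serum, penicillin and streptomycin. Technical duplicates were pooled, which gave 1 total RNA library per chicken and condition, 6 per condition and 24 in all.

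Type I interferons bind IFNAR1 and IFNAR2, and interferon gamma binds IFNGR1 and IFNGR2. Both receptors act through STAT proteins, which together with interferon regulatory factors (IRFs) switch on a large set of antiviral genes. Cytosolic sensors such as MDA5, encoded by IFIH1, start the response through the adaptor MAVS when they meet double-stranded RNA. Chickens have no gene for the related sensor RIG-I and none for IRF3, and IRF7 is regarded as the central factor for interferon induction in birds. In blood cells many of these antiviral genes are transcribed at a basal level that differs between cell types.

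Total counts per library ran from 12170873 to 31242160. The 10 T cell markers checked summed to 90734 to 123930 normalized counts per library (counts divided by the size factor of the library), so that T cell transcripts were abundant throughout. The libraries of chickens 1 and 2 stood apart. Markers of thrombocytes, the nucleated avian counterpart of platelets (9 of 10 listed markers found, none at 0 throughout a condition), summed in chicken 1 to 85064 normalized counts with BS, 78109 with BV, 16328 with conA and 100889 in the control. In chicken 2 these sums were 33985 with BS, 36562 with BV, 2685 with conA and 37330 in the control. In chickens 3 to 6 they lay between 1075 and 4269 with BS, between 1098 and 3870 with BV, between 754 and 1151 with conA and between 1054 and 4743 in the control. The labels number the libraries of chickens 1 and 2 from 29 to 36, those of chickens 3 to 6 from 37 to 48, and the conA libraries of chickens 3 to 6 from 57 to 60, so that for these 4 chickens conA and the later numbering cannot be told apart. In bulk RNA, fewer cells of a type and less RNA per cell cannot be told apart.

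No member passed the test with BS or with BV over the 6 chickens. The comparison asked whether the probiotic strains alter antiviral gene expression in resting PBMCs. With BS, edgeR's quasi-likelihood test called 0 of 33 genes at a Benjamini-Hochberg adjusted p under 0.05, where 0% of all genes tested were called. With BV it called 0 of 33, against 0.00493% of all genes tested. These counts come from a fit of the control, BS and BV libraries with no term for the chicken. With the chicken as a block, which removes the differences between birds, again 0 of 33 were called with BS, against 1.04% of all genes, and 0 of 33 with BV, against 0.913%. At an unadjusted p under 0.05 there were 0 of 33 genes for either strain without the block. Of all 20266 genes, 637 had such a p with BS and 597 with BV. With the block there were 9 of 33 for each strain, where 10.8% of all genes had such a p with BS and 10.9% with BV. DESeq2 also called 0 of 33 for both strains. Of all 20266 genes it called 13 higher and 2 lower with BS, and 9 higher and 1 lower with BV.

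The sizes of the differences were small. The median log2 fold change (log2 FC) of the 33 genes was -0.0033 with BS and 0.018 with BV, and over all genes tested it was 0 with BS and -0.0048 with BV. With BS the 33 values ran from -0.28 to 0.32, and 29 of them lay within 0.2 of 0. With BV they ran from -0.30 to 0.38, and 30 lay within 0.2 of 0. Averaged over all members, the log2 level of a chicken's BS library minus that of its control library was -0.024 ± 0.040, and for BV it was -0.014 ± 0.045 (SD, n = 6). The BS and BV comparisons share their control libraries. In BS against BV, 0 of 33 genes were called without the block (0% of all genes) and 0 of 33 with it (0%), at a median log2 FC of -0.00091. At an unadjusted p under 0.05 this comparison had 0 members without the block, against 227 of 20266 genes, and 1 with it, against 2.89% of all genes. DESeq2 called 0 of 33 here, and 0 of all genes.

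**Figure D1:**
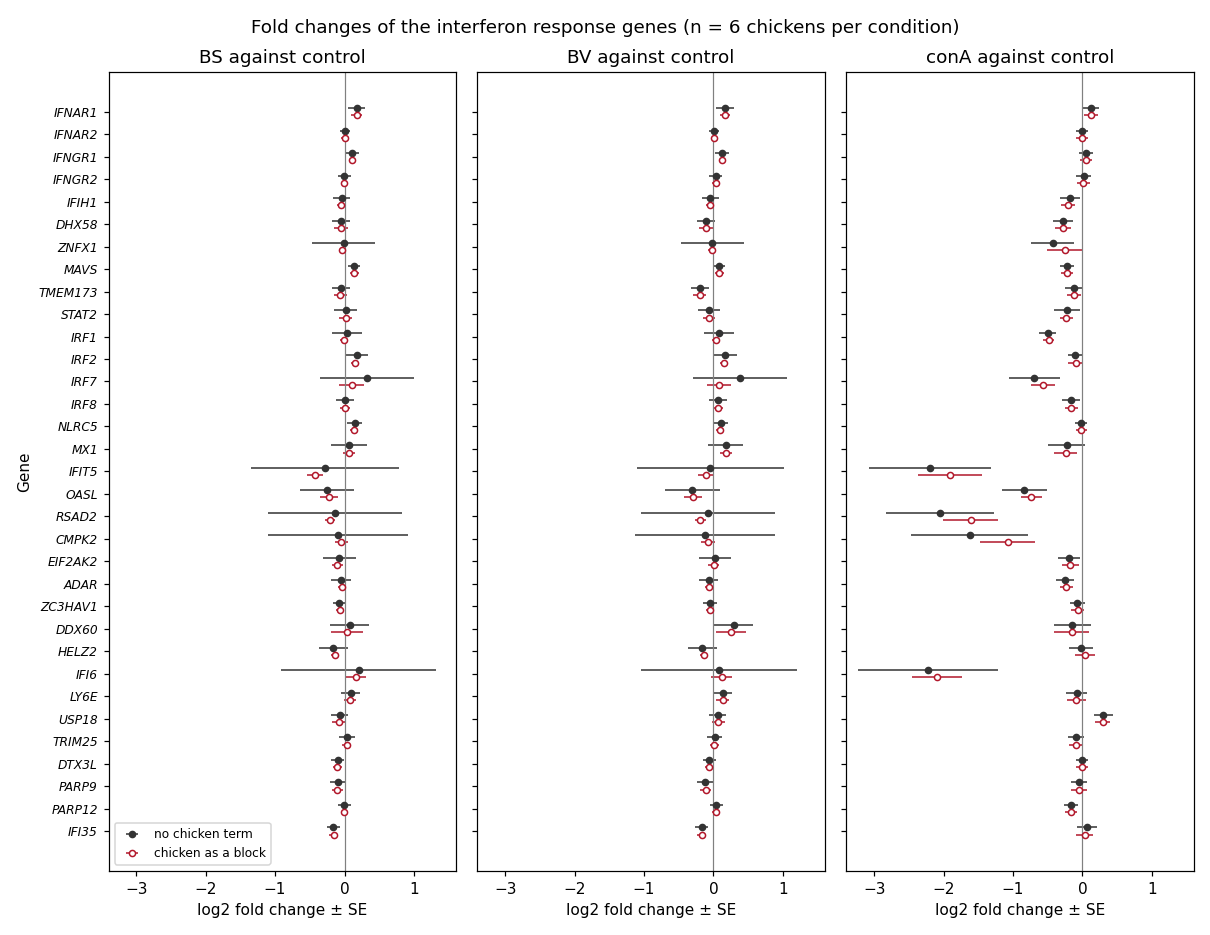
log2 fold changes (x axis, ± SE) of the 33 genes (y axis) for BS, BV and conA against the control, n = 6 chickens per condition, from the fit with no chicken term (filled) and with the chicken as a block (open). The BS and BV values lie near 0, between -0.43 and 0.38 in both fits, while IFIT5, RSAD2, CMPK2 and IFI6 lie below -1 with conA.

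The receptors were nearly level. IFNAR1 and IFNAR2, the chains of the type I interferon receptor, averaged 3273 ± 536 and 2236 ± 87.5 normalized counts with BS, 3257 ± 522 and 2243 ± 142 with BV, and 2902 ± 470.5 and 2229 ± 210.0 in the control (SD, n = 6). IFNGR1, the ligand-binding chain of the interferon gamma receptor, exceeded its control in 6 of 6 chickens with BS and in 6 of 6 with BV, at log2 FC of 0.11 ± 0.05 and 0.12 ± 0.05 with the block (SE, edgeR adjusted p = 0.38 and 0.29). IFNGR1 averaged 3823 ± 479.5 normalized counts with BS, 3847 ± 442 with BV and 3538 ± 369 in the control. It was the 1 member of 33 that was higher in all chickens with either strain, where 3.72% of the 13024 genes that averaged 10 or more normalized counts were so with BS and 4.51% with BV. Each share is close to 1 of 33, so neither strain alone sets IFNGR1 apart. The share of genes higher in all chickens with both strains was not counted.

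Lower in 6 of 6 chickens were 2 of 33 genes with BS, IFIT5 and RSAD2, against 3.21% of all genes, and 2 of 33 with BV, TMEM173 and IFI35, against 3.79%. IFIT5 belongs to a family of proteins that bind viral RNA. It measured 1382, 502, 129, 93.4, 46.2 and 46.2 normalized counts with BS in chickens 1 to 6, against 1536, 640.1, 213, 170.1, 79.5 and 62.1 in the control. The ranges of both groups overlapped almost wholly, because the birds differed far more from each other than each did from its own control. The log2 FC of IFIT5 with BS was -0.28 ± 1.06 without and -0.43 ± 0.12 with the block (SE, edgeR adjusted p = 1 and 0.086). With BV it was -0.05 ± 1.06 and -0.10 ± 0.12. TMEM173 encodes STING, the adaptor of cytosolic DNA sensing. It averaged 516 ± 90.0 normalized counts with BS, 466 ± 60.5 with BV and 536 ± 85.6 in the control, with a log2 FC for BV of -0.19 ± 0.09 with the block (edgeR adjusted p = 0.45).

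Among the sensors and adaptors, MAVS averaged 1462 ± 98.1 normalized counts with BS, 1402 ± 118 with BV and 1324 ± 128 in the control (SD, n = 6). IFIH1 averaged 2339 ± 414 with BS, 2334 ± 380.1 with BV and 2408 ± 321 in the control. DHX58, which encodes LGP2, a relative of MDA5, averaged 627 ± 88.7 with BS, 605 ± 78.8 with BV and 650.3 ± 117 in the control. MAVS differed by more than 1 SD of either group with BS but did not pass the test, with a log2 FC of 0.14 ± 0.08 without and 0.14 ± 0.06 with the block (SE, edgeR adjusted p = 1 and 0.37). The other differences were within the spread between the chickens of a condition.

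The transcription factor IRF7 had the largest log2 FC without the block for both strains, 0.32 ± 0.68 with BS and 0.38 ± 0.68 with BV, neither of which passed the test (edgeR adjusted p = 1 for both). IRF7 measured 2904, 756, 477, 481, 495 and 354 normalized counts with BS in chickens 1 to 6. With BV it measured 3278, 864, 332, 397, 522 and 348, and in the control 1724, 790.4, 413, 492, 437 and 528. Chicken 1 was by far the highest in each condition and also the bird in which BS and BV differed most from the control. With only chickens 3 to 6 in a blocked fit, the log2 FC of IRF7 turned to -0.06 with BS and -0.25 with BV. IRF1, an interferon gamma target, averaged 7135 ± 2504 with BS, 7349 ± 2662 with BV and 6978 ± 1432 in the control. STAT2, a transcription factor downstream of the type I receptor, averaged 1276 ± 261 with BS, 1205 ± 243 with BV and 1261 ± 322 in the control.

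Among the effectors, OASL, related to the oligoadenylate synthetases, had one of the larger differences. OASL measured 1146, 441, 431, 461, 615 and 418 normalized counts with BS in chickens 1 to 6, against 1551, 614, 429.9, 494, 446 and 642 in the control. With BV it measured 1234, 639, 413, 387, 352 and 373. The log2 FC of OASL was -0.25 ± 0.39 with BS and -0.30 ± 0.39 with BV (SE, edgeR adjusted p = 1 for both). DDX60, a helicase linked to RIG-I-like receptor signalling in mammals, had a log2 FC of 0.29 ± 0.28 with BV at a low level, with 21.3 to 94.5 normalized counts per library with BV and 39.3 to 53.1 in the control. In chickens 1 and 2 alone its log2 FC with BV turned to -0.34. MX1, a dynamin-like antiviral GTPase and a common readout of interferon action, averaged 335 ± 108 with BS, 361 ± 113 with BV and 322 ± 115 in the control. Among the ubiquitin and ADP-ribose group, the log2 FC lay between -0.16 and 0.03 with BS and between -0.17 and 0.06 with BV.

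In chickens 1 and 2 alone, with the chicken as a block, 5 of 33 genes were called with BS, against 6.62% of all genes in the same fit. IFNAR1 and IRF2 were higher, and HELZ2, IFI35 and OASL were lower. This fit rests on 2 birds per condition and on the spread pooled across genes. Chickens 3 to 6 gave 0 calls with BS, where of all 20266 genes 45 were called higher and 23 lower. With BV both sets of chickens gave 0. Of all genes, 51 were called higher and 39 lower with BV in chickens 1 and 2, and 34 higher and 13 lower in chickens 3 to 6. The difference in effect between the sets was called for 0.0345% of all genes with BS and 0% with BV, with no member among them.

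With conA the log2 FC values lay farther from 0 than with the strains, and most were negative. Of the 33 genes, 28 had a log2 FC below 0 and 5 above 0 with conA, where 44.1% of all genes tested were above 0. The median of the 33 was -0.16, and over all genes tested it was -0.028. Without the block 1 gene fell at an adjusted p under 0.05, IRF1, where 0.138% of all genes fell, and 0 of 33 rose, where 2.2% of all genes rose. With the chicken as a block 3 genes fell, IRF1, OASL and IFI6, against 2.6% of all genes, and 0 rose, against 3.52%. The block and the counts over chickens pair the libraries by replicate number. Between conA and control, correlations over the genes that averaged 10 or more normalized counts did not bear out this pairing for chickens 3 and 5. The study's stricter criteria, which also ask for an absolute log2 FC above 1.5, were met with the block by IFI6 alone, against 1.47% of all genes that fell this far. The thrombocyte markers moved in the same direction: with conA their median log2 FC was -2.56, and 1 of 9 fell without and 6 of 9 with the block. Their part in the result was not tested.

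IRF1 measured 5798, 4648, 4538, 5443, 4596 and 4483 normalized counts with conA in chickens 1 to 6, against 9749.6, 6212, 6741, 7057, 6376 and 5730.0 in the control. It was lower in 6 of 6 chickens. Only the conA library of chicken 1 lay within the range of the control libraries. The log2 FC of IRF1 was -0.50 ± 0.12 without and -0.49 ± 0.08 with the block (SE, edgeR adjusted p = 0.036 and 0.0017). In chickens 1 and 2 alone it was -0.55 ± 0.13 (edgeR adjusted p = 0.043) and in chickens 3 to 6 alone -0.44 ± 0.09 (edgeR adjusted p = 0.025). Without the block the call of IRF1 was lost when any 1 of chickens 2 to 6 was left out, and also with all 24 libraries in the fit. Over 20 alternatives the adjusted p of IRF1 ran from 0.0017 to 0.22, and 14 of them kept it under 0.05.

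OASL measured 588, 292, 343, 424, 347 and 338 normalized counts with conA in chickens 1 to 6, and was below the control of the same bird in 6 of 6. Its log2 FC was -0.83 ± 0.32 without and -0.73 ± 0.16 with the block (SE, edgeR adjusted p = 0.3 and 0.012). The call with the block was lost without chicken 2 or chicken 6. IFI6, an interferon-induced membrane protein with antiviral activity in mammals, measured 180.2, 48.9, 25.3, 14.5, 47.9 and 19.1 with conA, against 955, 452, 115, 59.99, 55.4 and 14.2 in the control. IFI6 was lower in 5 of 6 chickens, and the exception was chicken 6, the bird with the lowest control. Its log2 FC was -2.23 ± 1.01 without and -2.10 ± 0.37 with the block (SE, edgeR adjusted p = 0.4 and 0.007). In chickens 3 to 6 alone OASL and IFI6 were not called, and the 2 genes that fell there were IRF1 and RSAD2, against 0.627% of all genes.

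The other large log2 FC values with conA did not pass the test over all 6 chickens. IFIT5 had -2.20 ± 0.88 without and -1.91 ± 0.46 with the block (SE, edgeR adjusted p = 0.33 and 0.065). RSAD2 had -2.05 ± 0.77 and -1.61 ± 0.39 (edgeR adjusted p = 0.3 and 0.082). CMPK2 had -1.62 ± 0.84 and -1.08 ± 0.39 (edgeR adjusted p = 0.46 and 0.22). These genes spread widely between birds, as the next paragraphs describe. Further down in size came IRF7 with -0.70 ± 0.37, ZNFX1 with -0.43 ± 0.31 and MAVS with -0.23 ± 0.10, none of which passed (edgeR adjusted p = 0.47, 0.63 and 0.35).

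Lower in 6 of 6 chickens with conA were 5 of 33 genes, DHX58, MAVS, IRF1, OASL and RSAD2, against 7.19% of all genes. Higher in 6 of 6 was 1 of 33, USP18, against 8.51%. USP18 is a protease that removes the ubiquitin-like protein ISG15 in mammals and dampens type I receptor signalling. It measured 562, 508, 536, 367, 636 and 561 normalized counts with conA in chickens 1 to 6, against 522, 446, 443, 357, 399 and 416 in the control. Its log2 FC of 0.30 ± 0.14 did not pass (edgeR adjusted p = 0.37). The receptors stayed nearest to the control, with log2 FC between -0.010 and 0.12. MX1 averaged 272 ± 98.0 with conA and 322 ± 115 in the control (SD, n = 6), with overlapping groups. IFI35 had 4371 normalized counts in the conA library of chicken 4, against 2219 to 2676 in the other conA libraries.

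**Figure D2:**
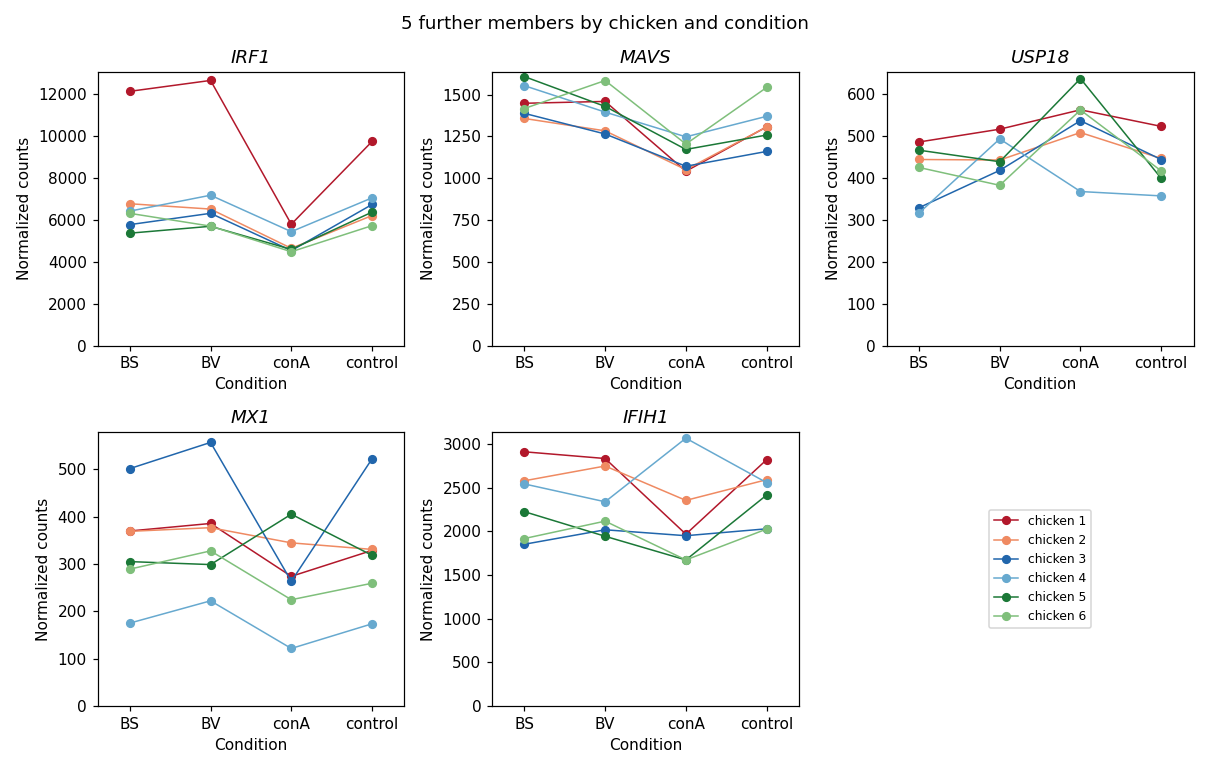
Normalized counts (y axis) of 5 members with BS, BV, conA and in the control (x axis), with 1 point per library and lines joining the libraries of a chicken. IRF1 and MAVS lie lower with conA than in the control in 6 of 6 chickens, and USP18 lies higher in 6 of 6.

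Set against the bacteria-treated cells, conA differed in MAVS. MAVS measured 1042, 1051, 1072, 1247, 1172 and 1204 normalized counts with conA in chickens 1 to 6, against 1448, 1357, 1388, 1553, 1607 and 1417 with BS. With BV it measured 1459, 1283, 1264, 1395, 1429 and 1584. No conA library reached the lowest BS or BV library. In conA against BS, MAVS fell with a log2 FC of -0.36 ± 0.08 (SE, edgeR adjusted p = 0.011), and was the 1 member called lower without the block, against 0.489% of all genes. None was called higher, against 3.25%. In conA against BV, MAVS fell with a log2 FC of -0.30 ± 0.08 (edgeR adjusted p = 0.045), again the 1 member called lower, against 0.311% of all genes, while 0 were called higher, against 2.87%. The BV call of MAVS was lost whichever chicken was left out, and the BS call without chicken 2 or chicken 3.

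With the block, 4 of 33 genes fell in conA against BS, MAVS, IRF1, OASL and IFI6, against 5.12% of all genes, and USP18 rose with a log2 FC of 0.37 ± 0.12 (SE, edgeR adjusted p = 0.04), 1 of 33 against 5.85%. The USP18 call and the OASL call were lost when any 1 of chickens 1, 2, 3, 5 or 6 was left out. In conA against BV with the block, 4 of 33 fell, MAVS, IRF1, IFIT5 and IFI6, against 4.42% of all genes, and 0 rose, against 5.37%. The IFIT5 call was lost when any 1 of chickens 1, 2, 3, 4 or 6 was left out. Both comparisons use the same conA libraries. The log2 FC of IRF1 with the block was -0.48 ± 0.09 against BS and -0.51 ± 0.09 against BV, close to its value against the control.

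The birds accounted for most of the variation among the control, BS and BV libraries. Over these 18 libraries the bird took a median of 82.6% of the sum of squares of the log2 level over the 33 genes and the treatment a median of 2.71%. Over the 13024 genes that averaged 10 or more normalized counts these medians were 65.8% and 5.07%. The bird took over 50% of the sum of squares for 26 of 33 members (78.8%) and for 71.9% of all those genes. ZNFX1, RSAD2, CMPK2, IFIT5 and IFI6 stood at the upper end with 99.5%, 99.0%, 98.9%, 97.7% and 96.4% for the bird. DHX58, IFI35, PARP9, MAVS, TMEM173, USP18 and DDX60 stood at the lower end, at 35.1% to 48.9%. Over the control and conA libraries the bird took a median of 54.7% and the treatment 8.95% over the members, against 56.7% and 8.62% over all those genes.

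**Figure D3:**
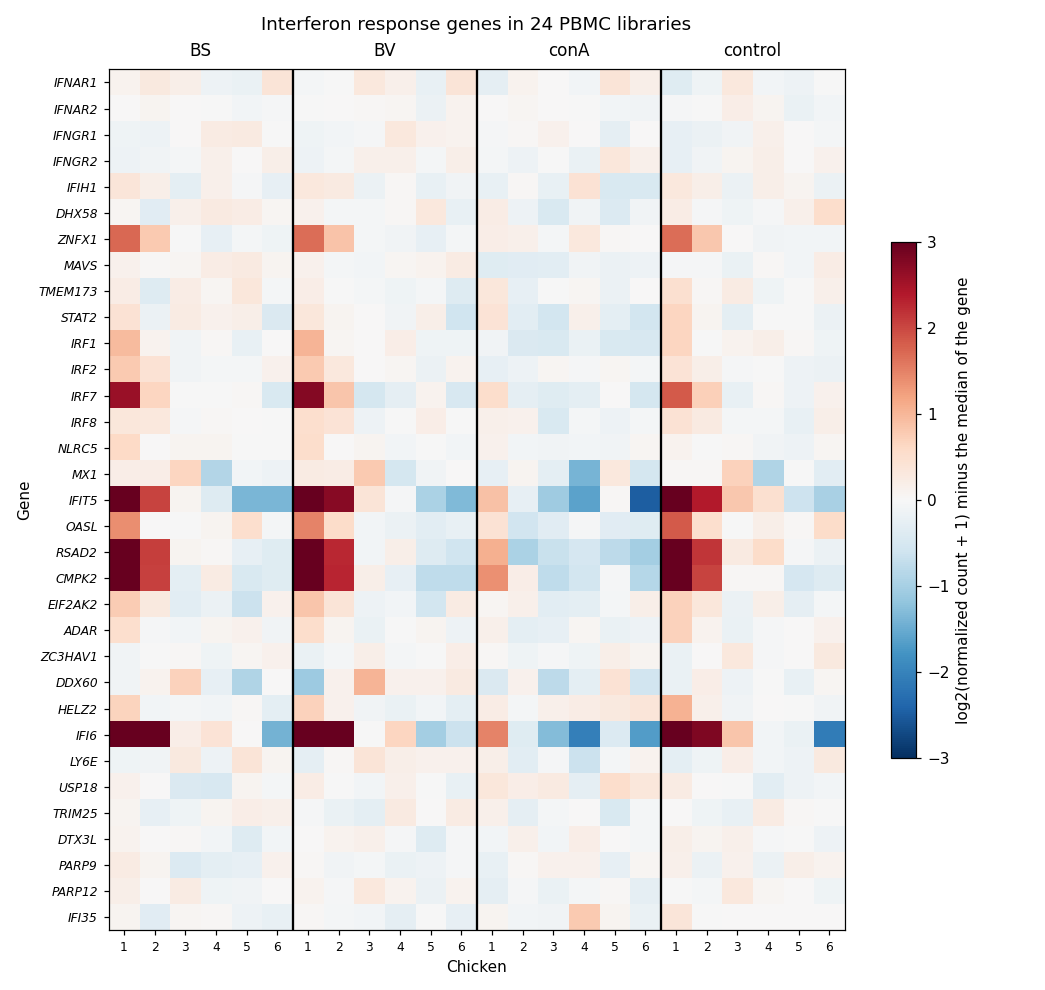
Level of the 33 genes (rows) in the 24 libraries (columns, chickens 1 to 6 within BS, BV, conA and control), as log2(normalized count + 1) minus the median of the gene over all libraries, with colours capped at -3 and 3. IFIT5, RSAD2, CMPK2 and IFI6 are high in chickens 1 and 2 with BS, with BV and in the control, and much less so with conA.

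The birds at the top were chickens 1 and 2. In chicken 1, 6 of 33 members were at least 2-fold above the highest of chickens 3 to 6 with BS, with BV and in the control alike, ZNFX1, IRF7, IFIT5, RSAD2, CMPK2 and IFI6, where 5.58% of all genes were so. In the conA library of chicken 1 this held for 3 members, RSAD2, CMPK2 and IFI6, against 4.13% of all genes. In chicken 2 it held for 4 members with BS, with BV and in the control, IFIT5, RSAD2, CMPK2 and IFI6, against 3.42% of all genes, and for 0 with conA, against 1.69%. These counts describe single birds and carry no test.

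RSAD2, which encodes viperin, an enzyme that makes a chain-terminating nucleotide, measured 4263, 1571, 395, 382, 314 and 290.0 normalized counts with BS in chickens 1 to 6. With BV it measured 4443, 1804, 354, 425, 285 and 246, with conA 792, 195, 235, 266, 218 and 184, and in the control 4592, 1651, 449, 552, 368 and 331. The order of the birds was thus nearly the same in the control and with either strain, and with conA chicken 2 came to lie among chickens 3 to 6. CMPK2, a nucleotide kinase that supplies the substrate of viperin, measured 2532, 929, 183, 265, 163 and 173 with BS, 2414, 1091, 253, 188, 131 and 130.4 with BV, 579, 255, 131, 152, 218 and 123 with conA, and 2887, 904, 228, 228, 156 and 170.4 in the control. CMPK2 and RSAD2 are next to each other on chromosome 3 in the RefSeq annotation of GRCg7b, a later assembly than the one the reads were aligned to.

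IFIT5 measured 1429, 819, 159, 118, 62.6 and 47.9 normalized counts with BV in chickens 1 to 6 and 225, 103, 57.9, 39.4, 126 and 21.3 with conA. In the control, chicken 1 was 12.3-fold and chicken 2 was 5.13-fold above the median of chickens 3 to 6, and with conA 4.62-fold and 2.12-fold. IFI6 measured 1128, 510.4, 72.8, 84.7, 64.7 and 23.1 with BS and 967, 563, 62.7, 99.5, 30.8 and 40.3 with BV. In the control, chicken 1 was 16.6-fold above that median for IFI6, 11.2-fold for RSAD2 and 14.5-fold for CMPK2. ZNFX1, a helicase that senses viral RNA in mammals, measured 10437, 5499, 3169, 2680.0, 3041 and 2913 with BS, 10125, 5766, 3057, 2938, 2684 and 3069 with BV, 3639.7, 3526, 3053, 3963, 3250.1 and 3227 with conA, and 10193, 5611, 3188, 2968, 3012 and 2994 in the control. For ZNFX1 the birds were alike with conA, and the level with BS or BV lay between 0.891 and 1.03 of the control in each bird.

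**Figure D4:**
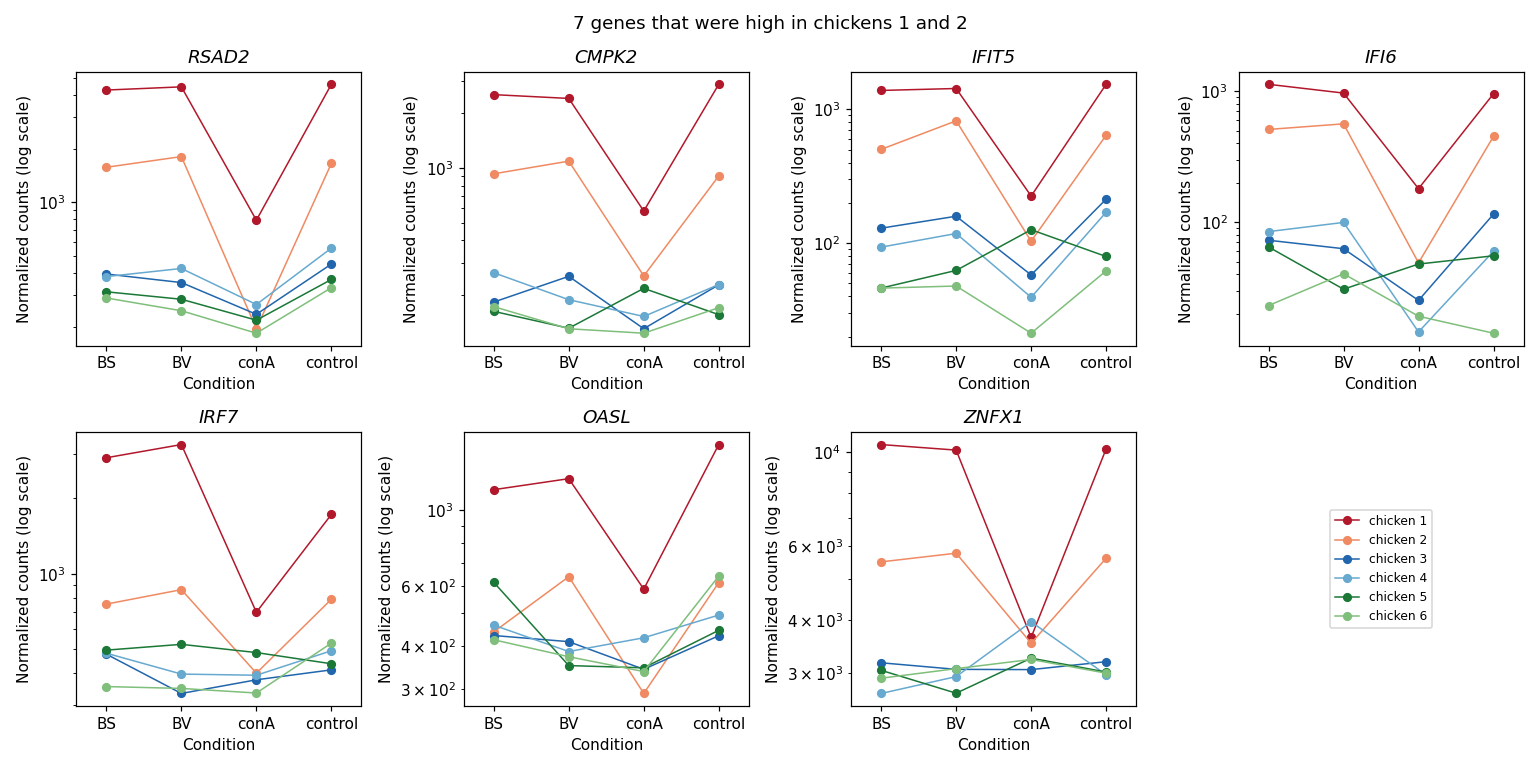
Normalized counts (y axis, log scale) of RSAD2, CMPK2, IFIT5, IFI6, IRF7, OASL and ZNFX1 with BS, BV, conA and in the control (x axis), with 1 point per library and lines joining the libraries of a chicken. Chicken 1 is the highest bird for each gene with BS, with BV and in the control, and for ZNFX1 with conA it lies below chicken 4.

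This pattern was not shared by the whole set. MX1 measured 369.5, 369, 501, 175, 305 and 289 normalized counts with BS in chickens 1 to 6 and 328, 331, 522, 173, 318 and 259 in the control, so that chicken 3 and not chicken 1 was highest. For IFIH1, chicken 1 was 1.27-fold above the median of chickens 3 to 6 in the control, and for the receptor chains IFNGR1 and IFNGR2 it was at 0.853 and 0.787 of it. When the mean log2(normalized count + 1) of RSAD2, CMPK2, IFIT5, IFI6, IRF7, OASL and ZNFX1, a group picked after their values were seen, was taken per library, it ran from 7.78 to 11.28 with BS, from 7.79 to 11.29 with BV, from 7.39 to 9.23 with conA and from 7.95 to 11.26 in the control. Over the other 26 members it ran from 10.35 to 10.64 with BS, from 10.35 to 10.58 with BV, from 10.25 to 10.40 with conA and from 10.35 to 10.59 in the control. Part of this contrast follows from the choice of the 7 genes. Chicken 1 was still the highest library of each condition over these 26. In the control it was 2.13-fold above the median of chickens 3 to 6 for HELZ2, 1.75-fold for EIF2AK2, 1.67-fold for STAT2, 1.64-fold for ADAR and 1.49-fold for IRF1. Others of the 26 lay below that median, such as the receptor chains. JAK2, a kinase of the interferon gamma receptor and no member of the set, was also highest in chickens 1 and 2 with BS and in the control, with 11753, 7248, 2784, 2781, 2886 and 3252 with BS, 3614, 2998, 3179, 2455, 3030.5 and 2758 with conA, and 10188, 6928, 3714, 3451, 2983 and 2518 in the control.

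The thrombocyte markers were highest in the same birds, chickens 1 and 2, and were lower with conA than in the control in chickens 1 to 5. In the control, chicken 1 had a mean log2 level of the 7 genes of 11.26 beside a thrombocyte sum of 100889 normalized counts, chicken 2 had 10.00 beside 37330, and chicken 6 had 7.95 beside 1054. With conA, the thrombocyte sum was 0.162 times that of the control in chicken 1, 0.0719 times in chicken 2, 0.285 times in chicken 3, 0.159 times in chicken 4, 0.468 times in chicken 5 and 1.01 times in chicken 6. With BS the same ratio lay between 0.843 and 1.58, and with BV between 0.774 and 1.27. Other lists were also highest in chicken 1 in the control, with a sum of 4648 for B cell markers against a median of 2028 over the 6 birds, and of 11182 for monocyte or macrophage markers against a median of 6799. In chicken 2 they were 3576 and 9018. With conA the B cell sum was 2814 in chicken 1 and 1897 in chicken 2. In chickens 3 to 6 it lay between 1885 and 2061 in the control and between 1976 and 2048 with conA. The monocyte or macrophage sum with conA was 8452 in chicken 1 and 6780 in chicken 2. In chickens 3 to 6 it lay between 5225 and 7064 in the control and between 5639 and 8213 with conA. The part of these lists in the differences between birds and with conA was not tested. In chicken 6 the thrombocyte sum was about the same with conA as in the control. In that bird RSAD2 was at 0.556, CMPK2 at 0.724, IFIT5 at 0.342, IRF7 at 0.632 and OASL at 0.527 of the control level. Of the same 7 genes, IFI6 was at 1.35 and ZNFX1 at 1.08. In chicken 5, with a thrombocyte ratio of 0.468, the mean log2 level of the 7 genes was 8.16 in the control and 8.17 with conA. There IFIT5 was at 1.58, CMPK2 at 1.39, IRF7 at 1.11 and ZNFX1 at 1.08 of the control level. RSAD2 was at 0.591, OASL at 0.778 and IFI6 at 0.865. These values come from 1 bird each, and their relation to the thrombocyte sum was not tested.

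**Figure D5:**
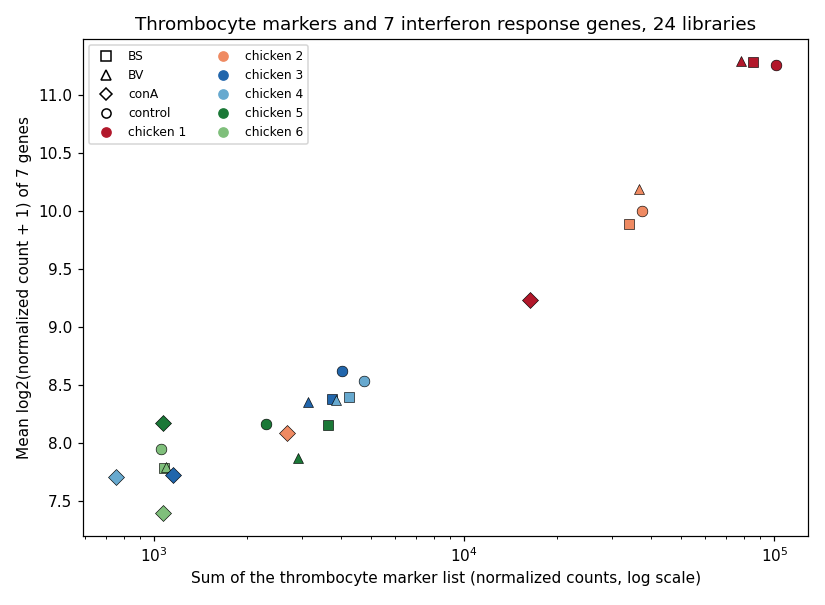
Mean log2(normalized count + 1) of RSAD2, CMPK2, IFIT5, IFI6, IRF7, OASL and ZNFX1 (y axis) against the summed normalized counts of 9 thrombocyte markers (x axis, log scale) in each of 24 libraries, with the condition as the symbol and the chicken as the colour. The BS, BV and control libraries of chickens 1 and 2 lie at the upper right, and the conA libraries of the same birds lie lower on both axes.

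For a few members the difference between conA and control was larger in chickens 1 and 2, whose high control values are themselves a term of it. In chickens 1 and 2 alone, with the chicken as a block, 8 of 33 genes fell with conA, against 5.37% of all genes: CMPK2, IFI6, IFIT5, IRF1, IRF7, OASL, RSAD2 and ZNFX1. This fit rests on 2 birds. The difference in the conA effect between chickens 1 and 2 and chickens 3 to 6 was itself tested and passed for 3 of 33 genes, against 1.16% of all genes. For RSAD2 the log2 FC of chickens 1 and 2 minus that of chickens 3 to 6 was -1.85 (edgeR adjusted p = 0.0013), with -2.74 ± 0.16 in chickens 1 and 2 and -0.90 ± 0.15 in chickens 3 to 6 (SE). For CMPK2 it was -1.74 (edgeR adjusted p = 0.015), with -2.07 ± 0.15 and -0.33. For ZNFX1 it was -1.20 (edgeR adjusted p = 0.018), with -1.05 ± 0.19 and 0.14. RSAD2 was thus below the control in all 6 chickens and in both sets, at 0.173, 0.118, 0.522, 0.483, 0.591 and 0.556 of the control level in chickens 1 to 6. The sets are those of the library numbering, and the numbering, the birds and the thrombocyte and B cell sums cannot be told apart.

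Of 66 further genes of the interferon pathway listed for comparison, 38 were found and 37 were tested. Without the block, 0 of 37 passed with BS and 0 with BV, and 3 rose with conA, IRF4, STAT4 and TRAF3, while 0 fell, where 2.2% of all genes rose and 0.138% fell. IRF4, a factor of activated lymphocytes, measured 3737, 4573, 6969.9, 4646, 4999 and 7906 normalized counts with conA in chickens 1 to 6, against 951, 1340.4, 1648, 2049.6, 1619 and 1738 in the control. The groups of IRF4 did not overlap, and its log2 FC was 1.81 ± 0.21 (SE, edgeR adjusted p = 0.00014). TRAF3, an adaptor of several receptor pathways, had a log2 FC of 0.73 ± 0.16 with conA (edgeR adjusted p = 0.02). STAT4, which passes on signals of interleukin 12 and type I interferon, had 0.59 ± 0.14 (edgeR adjusted p = 0.023).

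With the block, STAT4 also rose with both strains, at log2 FC of 0.36 ± 0.07 with BS and 0.31 ± 0.07 with BV (SE, edgeR adjusted p = 0.0042 and 0.021). STAT4 measured 3390.2, 3408, 4085, 3150.2, 3634 and 5223 normalized counts with BS in chickens 1 to 6 and 3215, 2832, 4676, 3623, 2689 and 5296 with BV, against 2497, 2687, 3765, 2884, 2377 and 3602 in the control. Each bird was higher with either strain than in its control, and the groups overlapped. STAT4 and 1 further gene made 2 calls among 37 with each strain, where 1.04% of all genes were called with BS and 0.913% with BV. With BS, TBK1, the kinase that activates IRF7, fell with a log2 FC of -0.22 ± 0.05 (edgeR adjusted p = 0.026). With BV, PIAS1, a SUMO ligase, rose with 0.25 ± 0.06 (edgeR adjusted p = 0.023). With conA and the block, IL10RB and IFITM5 rose beside IRF4, STAT4 and TRAF3, 5 of 37 in all, and 0 fell, where 3.52% of all genes rose and 2.6% fell. Of the interferon ligands listed, only IFNG and IFNW1 were among the genes tested, and both were near the limit of detection. IFNA3, IFNB, IFNK and IFNL3A were not among them, so their levels are not known here. IFNG had at most 1.04 normalized counts in a BS library, 3.44 in a BV library, 0 in each conA library and 3.01 in a control library. IFNW1 had at most 5.20 with BS, 6.01 with BV, 6.22 with conA and 8.22 in the control.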

How the data were processed

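PBMC libraries were made by the authors from total RNA (10 ng, SMART-Seq Stranded kit, 100 bases from both ends), trimmed with Skewer and aligned with STAR 2.7.3 to GRCg6a. Which tool counted the reads, with which strand setting and annotation, was not given in the sources used here. One deposited table holds read counts per gene, and the other the authors' normalized signal, the count divided by a DESeq2 1.24.0 size factor. The tables give no coordinates. DTX3L and PARP9 overlap in RefSeq (GRCg7b, used for names and order only, 36 of 37 symbols matched), so that their reads may be shared.

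Genes reaching 2 reads summed over the 24 libraries entered the test of edgeR 4.0.16 in R 4.3.3 (quasi-likelihood, robust, TMM, Benjamini-Hochberg over all genes tested). Fits against the control were also run on simulated counts. Their spread between birds was set the same for all genes and not taken from these data. The outcome is not given here. Separate fits held BS, BV and control, conA and control, and conA, BS and BV, without a chicken term, since the methods name none for this test. DESeq2 1.42.0 and fits with the chicken as a block were alternatives. The labels give a biological replicate number, and samples with the same number were taken as 1 chicken. Over 13024 genes their deviations from the group means correlated at 0.386 or more between BS and control, 0.506 between BV and control and 0.453 between BS and BV. The medians were 0.652, 0.683 and 0.688, against -0.198, -0.267 and -0.263 for different numbers. Different numbers reached 0.567, 0.565 and 0.555, so that some equal numbers lay below the highest of the different ones. With conA the lowest values were -0.034 against the control, -0.083 against BS and -0.031 against BV. Between conA and control the median was 0.451 for equal and -0.091 for different numbers. Chickens 3, 4 and 5 had -0.034, 0.363 and 0.080 there, while different numbers reached 0.504. For chickens 3 and 5 the correlations do not bear out the pairing that the blocked conA fits use. Levels per library used log2 with a pseudocount of 1. Without the chicken term, p-values rest on the spread between the libraries of a condition, which come from 6 birds. With the chicken as a block, they rest on the spread left after the differences between birds are removed. Fits that leave out chickens rest on fewer birds.

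The members and all lists were chosen with earlier results of these data known. Named for each comparison with the control were members past an adjusted p of 0.05 with or without the block, or else the 3 with the largest absolute log2 FC, and further genes by 6 of 6 direction or, as said there, after their values were seen. No sequence was available here, so that promoter motifs were not examined. No column of sample values was left out.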

Additional observations from a re-analysis of the deposited data

Results flagged for a closer look

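Single libraries far from the other 5 of their condition were sought among 132 gene and condition groups with Dixon's test on normalized counts. Its chance rate of about 1 in 20 groups holds for normally distributed values, and these counts were not log-transformed. The test picked out 31, and in 30 of them the library was the highest and came from chicken 1. That is 23.5% and 22.7% of the groups, and among the groups of the 13024 genes that averaged 10 or more normalized counts the shares were 10.3% and 4.53%. The 4 groups of a gene share their birds and are not independent. The exception was IFI35 with conA, where chicken 4 had 4371 normalized counts. In chicken 1, RSAD2 had 4263 normalized counts with BS, 4443 with BV, 792 with conA and 4592 in the control, and CMPK2 had 2532 with BS, 579 with conA and 2887 in the control. IRF7 had 2904 with BS, 3278 with BV and 1724 in the control, and OASL had 1146, 1234 and 1551. IRF1 had 12144 with BS, 12664 with BV and 9749.6 in the control, ADAR had 4888, 4984 and 5623, and HELZ2 had 7496, 7665 and 9719.6. ZNFX1 had 10437 with BS and 10193 in the control, and NLRC5 had 7756 with BS and 7414 with BV. IFIT5 had 1382 with BS, IFI6 had 180.2 with conA, and in the control STAT2 had 1882 and IFI35 had 3248. The thrombocyte, B cell and monocyte or macrophage sums of chicken 1 were also the highest in each condition, and their part in these values was not tested.

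The effect of conA differed between chickens 1 and 2 and chickens 3 to 6, by a test of the difference with the chicken as a block, for RSAD2 (log2 difference -1.85, edgeR adjusted p = 0.0013), CMPK2 (-1.74, edgeR adjusted p = 0.015) and ZNFX1 (-1.20, edgeR adjusted p = 0.018). One set holds only 2 birds, and their high control values are themselves a term of the difference. Only in chickens 3 to 6 were the conA libraries numbered apart from their controls, so that bird set and numbering cannot be told apart.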

How the results depend on the processing

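Without the block, 1 member was called lower in each conA comparison, IRF1 against the control and MAVS against BS and against BV. Adding the chicken as a replicate block gave 3 lower against the control, 4 lower and 1 higher against BS, and 4 lower against BV. With all 24 libraries in the fit 0 were lower against the control, where 66 of 20266 genes were. With no filter on low counts 0 were lower against BV, where 50 of 23910 genes were. Leaving out 1 chicken gave 0 to 2 lower against the control and against BS and 0 to 1 against BV without the block, and with it 2 to 5 lower against the control, 3 to 6 lower and 0 to 1 higher against BS, and 0 to 1 higher and 3 to 8 lower against BV. The highest of these counts with the block, 5, 6 and 8 lower, came without chicken 5. Of all 20266 genes, 481, 1120 and 1061 were called lower there. Over the fits that left out 1 chicken with the block, 253 to 530 genes were lower against the control, 604 to 1120 against BS and 545 to 1061 against BV. Without the block these were 3 to 35, 22 to 99 and 14 to 70. With the block, 865 to 1195 genes were higher against BS and 783 to 1187 against BV. Chickens 1 and 2 alone gave 8 lower in each of these 3 comparisons (5.37%, 5.8% and 5.43% of all genes), 0 higher against BS (3.33%), and 2 higher and 3 lower for BS against the control. Chickens 3 to 6 alone gave 2 lower against the control (0.627%), 3 lower and 1 higher against BS (2.11% and 4.36%), and 2 lower and 1 higher against BV (1.69% and 3.87%). The causes were not tested. For BS and BV against the control and for BS against BV no other alternative run (DESeq2, RLE normalization, other filters, the block, leaving out 1 chicken) gave a call. Among the genes followed through every alternative, directions turned, none of them called over all 6 chickens, for IRF7 with BS (-0.062 in chickens 3 to 6; -0.050 to 0.402 leaving out 1 chicken, or -0.054 to 0.231 with the block), IRF7 with BV (-0.245 in chickens 3 to 6; -0.105 to 0.480 leaving out 1 chicken, or -0.145 to 0.209 with the block), DDX60 with BV (-0.339 in chickens 1 and 2) and ZNFX1 with conA (0.145 in chickens 3 to 6). With the block, values near 0 also turned, such as HELZ2 with conA (0.037, against -0.022 without the block) and IRF1 with BS (-0.0045, against 0.032). For IFNG and IFNW1, at few reads, a small change was not detectable at this depth.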
